A study of Homo sapiens with 4 samples.

Results

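The p53 axis was examined through 9 genes: MDM2 and MDM4, which hold p53 in check, and 7 genes that p53 activates (CDKN1A, CCNG1, FAS, TP53INP1, ZMAT3, PPM1D and XPC). They were taken by symbol from a table of 23622 genes, and all 9 were present and had enough reads to be tested. The table came from MV4-11, a human cell line of acute myeloid leukemia with monocytic features. Total RNA was sequenced from 2 control libraries (sh-NC) and 2 libraries with IRF1 knockdown (sh-IRF1), all 4 of wild-type genotype according to the labels. The labels list the control as untreated, whereas the column names and the study's text call it sh-NC, a lentiviral control hairpin. The methods describe lentiviral hairpins with puromycin selection, and experiments in general are said to have been repeated independently. Neither the hairpin nor the culture behind each of these 4 libraries is stated, so p-values measure the spread between these libraries, which may be technical. The comparison asks how these genes stood after IRF1, an interferon-induced transcription factor, was lowered. Bulk RNA cannot tell fewer transcripts per cell from a different mixture of cells.

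The p53 protein is a transcription factor that is stabilized by DNA damage and other stress. It switches on genes for cell cycle arrest, DNA repair and apoptosis. MDM2 is a ubiquitin ligase that marks p53 for degradation and is itself a p53 target, which closes a negative feedback loop, and MDM4 is its partner that binds and inhibits p53 without strong ligase activity of its own. IRF1 has long been studied alongside p53, since both can act on the promoter of CDKN1A. In acute myeloid leukemia, raised MDM2 or MDM4 is a known way to restrain p53 and the reason why MDM2 inhibitors have been tried.

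The study designed 2 hairpins against IRF1, shown here because they define the knockdown. Both 21-base targets lie in coding sequence on the minus strand of chromosome 5 (hg38), the first in exon 7 from 132486284 to 132486304 and the second in exon 8 from 132485672 to 132485692.
sh-IRF1#1: gcaccagtgatctgtacaact
sh-IRF1#2: ggaaattacctgaggacatca

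The sites below are the closest matches to a p53 binding site near the starts of the genes, and they are shown because p53 acts on its targets through such sites. A p53 site consists of 2 adjacent half-sites of 10 bases. Windows of 2500 bases on either side of the RefSeq gene start (GRCh38.p14) were read from hg38 on both strands (the consensus reads the same on either), allowing at most 2 mismatches to the p53 half-site consensus and requiring the core CNNG in each half-site. Of the 9 genes, 8 had a RefSeq start in the table used. A match was found in 5 of them, MDM2, CDKN1A, CCNG1, FAS and ZMAT3, compared with 361 of 10131 tested genes with a listed start (3.56%). The genes were picked as p53 regulators and targets, so this comparison is no test of enrichment. Capitals mark the 20 bases of the site, each line runs 5′ to 3′ on the strand of the gene, and flanks are given where no annotated exon is touched.
MDM2 (chr12:68808903-68808962, plus strand, intron): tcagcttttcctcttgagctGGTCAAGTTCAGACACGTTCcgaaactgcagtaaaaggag
CDKN1A (chr6:36676449-36676468, plus strand, upstream of the canonical transcript): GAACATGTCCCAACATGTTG
CCNG1, first site (chr5:163437906-163437965, plus strand, intron): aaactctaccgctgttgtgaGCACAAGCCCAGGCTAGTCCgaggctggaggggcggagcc
CCNG1, second site (chr5:163439926-163439985, plus strand, intron): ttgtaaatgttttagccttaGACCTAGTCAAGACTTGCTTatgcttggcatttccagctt
FAS (chr10:88991309-88991328, plus strand, intron of the canonical transcript): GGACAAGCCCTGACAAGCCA
ZMAT3 (chr3:179070168-179070227, minus strand, intron): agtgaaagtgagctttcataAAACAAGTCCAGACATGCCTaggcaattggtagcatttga

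The ZMAT3 site had 0 mismatches, which 5 of the 10131 genes reached (0.0494%), and the first CCNG1 site had 1. The CDKN1A site lay at position -2256 from the start, and the other matches lay between 364 and 2384 bases after it. No match was found near MDM4, PPM1D or XPC, and TP53INP1 was not searched. In the 300-base promoter windows (250 bases before to 50 after the start), 0 of 8 genes held a p53 half-site without mismatch, against 5.1% of tested genes. The same 0 of 8 held the core interferon regulatory factor motif (GAAA, any 2 bases, GAAA, on either strand), against 2.9%. These are matches of letters only. Binding was not measured in these data.

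**Figure D1:**
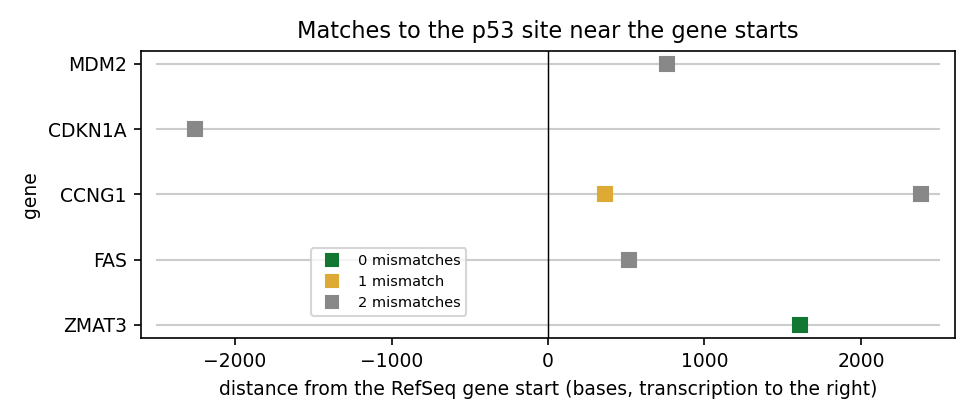
Position of the p53 site matches relative to the RefSeq gene start (x axis, bases, with transcription to the right) for the 5 genes with a match; colour gives the number of mismatches. The CDKN1A match lies at -2256, while those of MDM2, CCNG1, FAS and ZMAT3 lie 364 to 2384 bases downstream.

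The deposited values are reads scaled by the size factor of their library, called normalized counts here, and the reads behind them came to between 17635908 and 18695337 per library. Mitochondrial genes took 3.92% to 4.51% of the reads. Replicates differed by more than counting noise: chi-square averaged 2.52 per gene between the sh-NC libraries and 2.37 between the sh-IRF1 libraries. All 11 myeloid markers of a fixed list were detected, and their sum was 32350 to 32432 normalized counts in sh-NC and 28400 to 28583 in sh-IRF1. FLT3 made most of this sum in sh-NC but not in sh-IRF1. The other 10 markers summed to 14938 to 15041 in sh-NC and 15766 to 15838 in sh-IRF1. Of the 11, 3 were called higher and 5 lower (27.3% and 45.5%, beside 20.3% and 21.9% of all genes). Single markers moved more than the sums, with log2 fold changes from -2.81 to 0.85. Of 11 markers of other cell types, 5 were analysed here, and they summed to 1393 to 1630 normalized counts in sh-NC and 3354 to 3434 in sh-IRF1. PECAM1, which myeloid cells carry too, made most of that sum, and without it the range was 231 to 234 in sh-NC and 234 to 256 in sh-IRF1. The part of these marker sums in the results below was not tested.

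IRF1 (ENSG00000125347), the targeted gene, had 785 and 738 normalized counts in sh-NC and 430 and 432 in sh-IRF1. Both knockdown libraries lay below both controls, at 56.6% of the control mean. On the log2 scale the change was -0.82 (adjusted p = 1.69e-10, limma; standard error 0.0904). Other genes, IRF1-AS1 among them, overlap 22.9% of the exonic bases of IRF1. All fold changes here are on log2(normalized count + 1), and adjusted p-values are from limma with Benjamini-Hochberg adjustment over 14120 tested genes.

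The 2 inhibitors of p53 moved in opposite directions. MDM2 (ENSG00000135679, chromosome 12, 68808177 to 68845544) had 698 and 712 normalized counts in sh-NC and 962 and 1061 in sh-IRF1. Each sh-IRF1 library was above each sh-NC library, with means of 705 ± 10.1 and 1011 ± 69.8 (SD, n = 2 each). The log2 fold change was 0.52 (95% interval 0.37 to 0.67, adjusted p = 1.72e-07 from limma), or 144% of the control level. MDM4 (ENSG00000198625, chromosome 1, 204516379 to 204558120) had 1039 and 1095 normalized counts in sh-NC against 855 and 879 in sh-IRF1. Here both sh-IRF1 libraries were the lower ones, at 81.3% of the control mean. Its log2 fold change was -0.30 (95% interval -0.44 to -0.16, adjusted p = 0.000506 from limma).

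Part of the reads of MDM2 is uncertain. Of the 7490 bases of its canonical transcript, 1224 (16.3%) are shared with exons of other genes, among them CPM, a carboxypeptidase gene on the opposite strand. CPM itself had 766 and 784 normalized counts in sh-NC and 1534 and 1587 in sh-IRF1, and rose by 1.01 on the log2 scale (adjusted p = 1.46e-17, limma). The use of strand in counting is not given in the sources used here, so reads of the shared bases cannot be told apart. The part of CPM in the rise of MDM2 was not tested. No exonic base of MDM4 is shared with another gene.

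The balance between the inhibitors was also read within each library, where it does not depend on how libraries were scaled. These ratios were chosen after the values were seen and carry no test. Per kilobase of canonical transcript, MDM2 stood at 0.901 and 0.872 of MDM4 in the sh-NC libraries. In the sh-IRF1 libraries it stood at 1.51 and 1.62 of MDM4. The order of the 2 genes per length was thus MDM4 above MDM2 in both controls and MDM2 above MDM4 in both knockdown libraries. The ratio of MDM2 to CDKN1A, also per kilobase, went from 0.567 and 0.528 to 1.08 and 1.14. Whether reads of bases shared with CPM were counted for MDM2 is not given, so their part in both ratios is not known. Both ratios take the full canonical transcripts as the ones expressed.

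**Figure D2:**
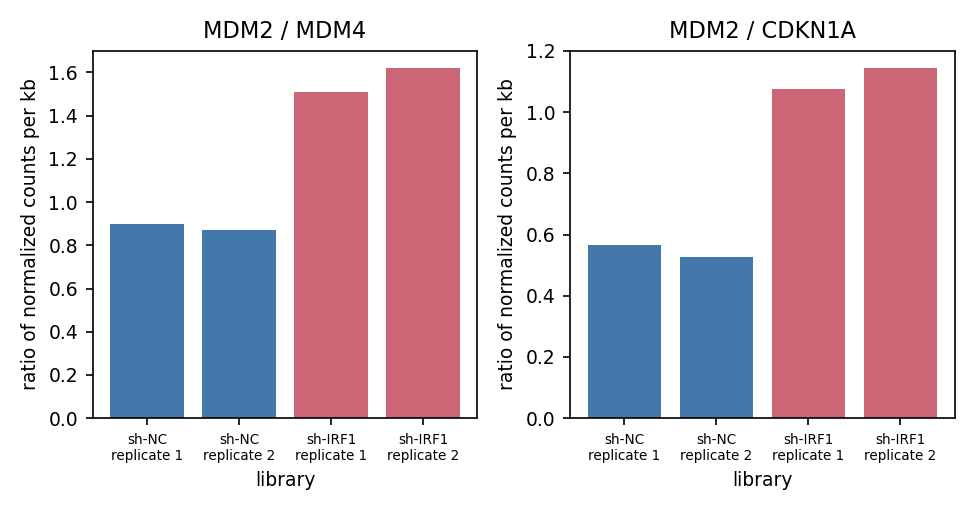
Ratio of MDM2 to MDM4 (left) and of MDM2 to CDKN1A (right) in each of the 4 libraries, as normalized counts per kb of canonical transcript; each bar is 1 library. The sh-NC bars stand at 0.872 to 0.901 (left) and 0.528 to 0.567 (right), and the sh-IRF1 bars at 1.51 to 1.62 and 1.08 to 1.14.

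CDKN1A and CCNG1 were both lower after knockdown. CDKN1A (ENSG00000124762, chromosome 6, 36676460 to 36687337) encodes p21, the inhibitor of cyclin-dependent kinases through which p53 stops the cell cycle. It had 348 and 381 normalized counts in sh-NC and 253 and 262 in sh-IRF1. Every sh-IRF1 value was below every sh-NC value, and the means were 364 ± 23.6 and 257 ± 6.86 (SD, n = 2 each). The change of -0.50 on the log2 scale (95% interval -0.75 to -0.25, adjusted p = 0.000824 from limma) lay just inside a limit of 0.5 in size. The upstream start of the annotated gene shares 4.87% of all its exonic bases with DINOL on the other strand, and its canonical transcript shares 0 bases.

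CCNG1 (ENSG00000113328, chromosome 5, 163437569 to 163446151) encodes cyclin G1, a target that recruits a phosphatase to MDM2 and so acts in the feedback on p53. It was the most abundant of the 9 genes, with 2676 and 2594 normalized counts in sh-NC and 1725 and 1799 in sh-IRF1. The groups did not overlap and differed by far more than the replicates. The group means, 2635 ± 57.8 and 1762 ± 52.4 (SD, n = 2 each), put the knockdown at 66.9% of control. This is a log2 fold change of -0.58 (95% interval -0.68 to -0.48, adjusted p = 1.05e-13 from limma), with the smallest p of the 9. CCNG1 shares no exonic base with another gene.

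ZMAT3 (ENSG00000172667, chromosome 3, 178960121 to 179072215), a zinc finger protein that binds RNA and whose gene holds the perfect p53 site above, rose. The sh-NC libraries had 309 and 252 normalized counts and the sh-IRF1 libraries 359 and 452. The groups did not overlap, but the replicates of each group were wide apart (280 ± 40.4 and 405 ± 65.4, SD, n = 2 each). On the log2 scale it rose by 0.53 (95% interval 0.28 to 0.78, adjusted p = 0.000526 from limma). Without sh-IRF1 replicate 2 it was 0.36 with an adjusted p of 0.0889, so this call rests on that library.

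The phosphatase gene PPM1D (ENSG00000170836, chromosome 17, 60600193 to 60666280), whose product WIP1 removes phosphates from p53 and from ATM, had 409 and 438 normalized counts in sh-NC and 379 and 424 in sh-IRF1. The groups overlapped. The log2 fold change was -0.08, and its 95% interval reached from -0.29 to 0.14 (adjusted p = 0.593 from limma). XPC (ENSG00000154767, chromosome 3, 14145147 to 14178621) encodes the damage sensor of nucleotide excision repair. It had 370 and 346 normalized counts in sh-NC and 345 and 355 in sh-IRF1, which also overlap. Its interval ran from -0.26 to 0.20 around -0.03 on the log2 scale (adjusted p = 0.847, limma), and 30.0% of its canonical transcript is shared with XPC-AS1 and ENSG00000268279. For both genes a log2 fold change of 0.5 in either direction lies outside the interval.

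TP53INP1 and FAS were too low for a firm statement. TP53INP1 (ENSG00000164938, chromosome 8, 94925972 to 94949378), a nuclear protein that promotes p53 activity and autophagy, had 39.0 and 47.2 normalized counts in sh-NC and 31.8 and 18.7 in sh-IRF1. Both sh-IRF1 values were below both controls, but the adjusted p was 0.0828 (log2 fold change -0.79, 95% interval -1.53 to -0.04, limma). FAS (ENSG00000026103, chromosome 10, 88953813 to 89029605), the death receptor of the extrinsic apoptosis pathway, had 12.3 and 16.4 normalized counts in sh-NC and 18.9 and 6.56 in sh-IRF1. The sh-IRF1 libraries held both the highest and the lowest FAS value. Its 95% interval of -1.52 to 0.89 on the log2 scale (adjusted p = 0.711 from limma) shows that neither a rise nor a fall was detectable at this depth.

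**Figure D3:**
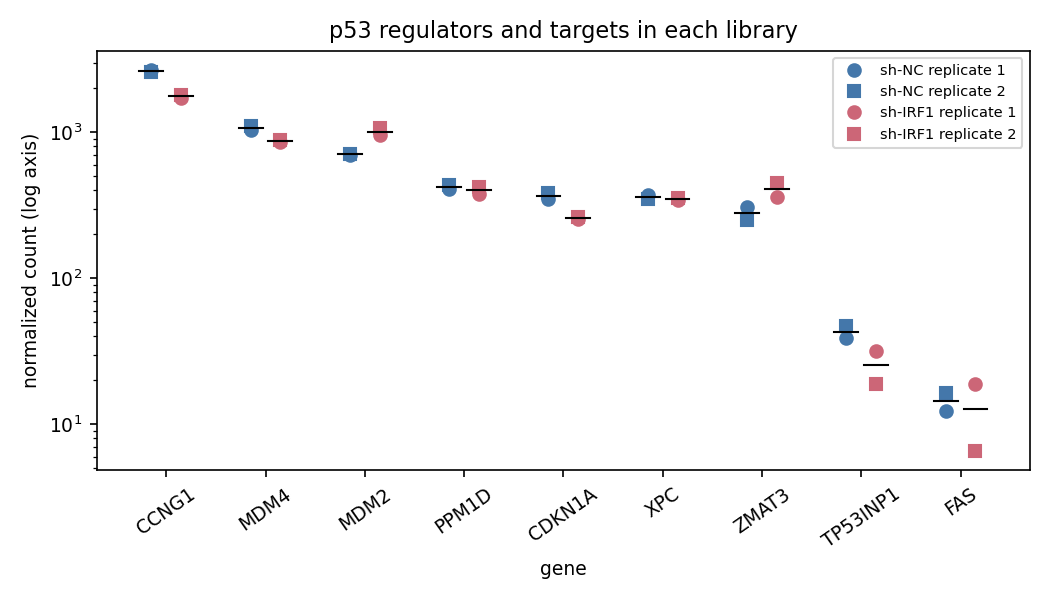
Normalized count of each of the 9 genes (y axis, log scale) in the 2 sh-NC and 2 sh-IRF1 libraries; circles are replicate 1, squares replicate 2, and black lines the group means. CCNG1, MDM4, CDKN1A and TP53INP1 (not called) sit lower in both sh-IRF1 libraries, MDM2 and ZMAT3 higher, and PPM1D, XPC and FAS overlap.

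**Figure D4:**
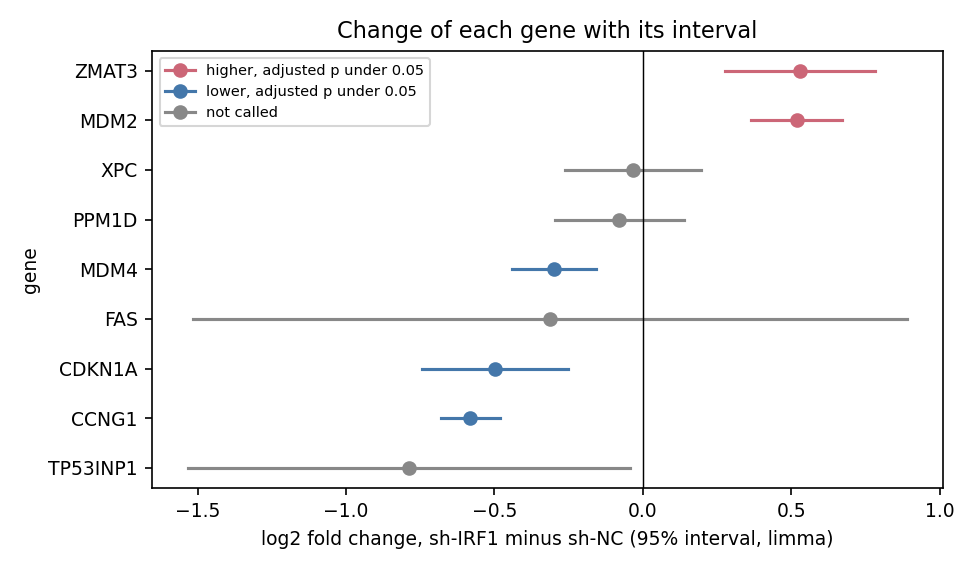
Change of each gene on the log2 scale (x axis, sh-IRF1 minus sh-NC), with the 95% interval from limma (n = 2 per group); colour gives the call at an adjusted p under 0.05. Intervals of ZMAT3 and MDM2 lie above 0, those of MDM4, CDKN1A, CCNG1 and TP53INP1 (not called) below 0, and FAS has the widest.

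At an adjusted p under 0.05, 2 of the 9 genes were called higher and 3 lower. Over all 14120 genes tested, 20.3% were called higher and 21.9% lower. With a log2 fold change beyond 0.5 in addition, 2 were called higher (MDM2 and ZMAT3) and 1 lower (CCNG1), against 8.27% and 7.56% of all genes. Counts at this limit rest on single libraries: without sh-IRF1 replicate 2, 0 were higher, and without sh-NC replicate 2, 1 was. CDKN1A joined CCNG1 among the lower genes with DESeq2, TMM or upper-quartile scaling and without sh-NC replicate 1 or sh-IRF1 replicate 2, and TP53INP1 did so without sh-IRF1 replicate 1. Over the 9 genes the median was -0.30 on the log2 scale, beside -0.0019 over all genes tested. Levels per kilobase in sh-NC fell in the order CCNG1 (1078), CDKN1A (172), MDM4 (106), XPC (98.1), MDM2 (94.1), PPM1D (88.8), ZMAT3 (31.4), TP53INP1 (7.69) and FAS (3.89). Among neighbours in this order, the values of the 2 control libraries overlapped for XPC and MDM2 only. In sh-IRF1, MDM2 (135 per kilobase) came second after CCNG1 (721), its lower library being above both CDKN1A libraries (119 and 124).

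The wider pathway was described through lists of regulators and targets, written from general knowledge. Upstream of p53, 24 of 26 regulators could be tested, and 5 were called higher and 9 lower (20.8% and 37.5%, beside 20.3% and 21.9% of all genes), with a median log2 fold change of -0.11. The damage kinase ATM, the acetyltransferase CREBBP and the damage adaptor TP53BP1 rose, with log2 fold changes of 0.33, 0.22 and 0.28. Of the exonic bases of TP53BP1, 28.8% also belong to another gene. By smallest p, the lowered regulators were led by RPL5 (-0.23) and RPL23 (-0.28), ribosomal proteins that bind MDM2 when ribosome assembly fails, and by USP7 (-0.26), which removes ubiquitin from both p53 and MDM2. The p53 relative TP73 had 32 and 26 reads in sh-NC and 14 and 9 in sh-IRF1 (-1.37 on the log2 scale, adjusted p = 0.0212, limma). Its sh-IRF1 libraries alone would not have passed the filter on low values, so its call is no support for a fall of the list.

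Over the 6 lists of further p53 targets, 85 of 103 genes could be tested, of which 23 were called higher (27.1%, beside 20.3% of all genes) and 21 lower (24.7%, beside 21.9%), with a median of 0.02. Beyond a log2 fold change of 0.5, 12 rose (14.1%, beside 8.27% of all genes) and 13 fell (15.3%, beside 7.56%). All genes tested were likewise called in both directions. PLK2 and KITLG, counted as higher at both limits, passed the filter on low values only through sh-IRF1 and are no support for a rise.

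Of 11 genes tested on the list of arrest targets, 4 rose and 3 fell (36.4% and 27.3%, beside 20.3% and 21.9% of all genes). Being on this list does not mean that a gene by itself stops the cell cycle. E2F7, a repressor of E2F-driven transcription, had 211 and 240 normalized counts in sh-NC and 507 and 465 in sh-IRF1, a rise of 1.10 on the log2 scale. GAS6, a ligand of TAM receptor kinases, rose by 0.56 and SERTAD1, a cyclin-dependent kinase 4 partner, by 0.69. PLK2 passed with only 3 and 13 reads in sh-NC and 20 and 26 in sh-IRF1. Its sh-NC libraries alone would not have passed the filter on low values, so its call is no support for a rise. The lowered genes were the antiproliferative family members BTG1, BTG2 and TOB1, at -1.15, -0.66 and -0.59. BTG1 fell to 44.9% of control (mean 1222 ± 80.2 in sh-NC, 548 ± 23.9 after knockdown, SD, n = 2 each). Other genes overlap 11.1% of the exonic bases of TOB1 and 16% of those of BTG1.

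Among 19 apoptosis targets tested, 3 rose and 4 fell (15.8% and 21.1%, beside 20.3% and 21.9% of all genes). BAX, the pore-forming effector of the mitochondrial pathway, rose from 1174 ± 52.6 to 1574 ± 10.6 (normalized counts ± SD, n = 2 per group), 0.42 on the log2 scale (adjusted p = 1.08e-07, limma). CASP1 and the nuclease gene AEN rose by 0.33 and 0.21. BBC3, which encodes the BH3-only protein PUMA, fell from 253 ± 4.12 to 136 ± 16.1 (normalized counts ± SD, n = 2 per group), -0.90 on the log2 scale (adjusted p = 6.52e-06, limma). The TRAIL receptor gene TNFRSF10B (-0.36) and PMAIP1 (-0.34), which encodes the BH3-only protein NOXA, fell as well. Of 9 repair targets none rose at an adjusted p under 0.05 and 2 fell (0% and 22.2%, beside 20.3% and 21.9% of all genes). The 2 were the translesion polymerase genes REV3L (-0.30) and POLH (-0.33).

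Metabolic targets, 16 tested, gave 4 higher and 5 lower (25% and 31.25%, beside 20.3% and 21.9% of all genes). FUCA1, a lysosomal fucosidase, rose by 0.91, ALDH4A1 of proline breakdown by 0.42 and LPIN1 by 0.25. ABCA1, the cholesterol exporter, fell from 1802 ± 81.5 to 530 ± 68.4 (normalized counts ± SD, n = 2 per group), -1.77 on the log2 scale. SESN2, a stress-induced inhibitor of mTORC1, fell by 0.69 and NADSYN1, of NAD synthesis, by 0.54 on the log2 scale. DRAM1, a lysosomal protein linked to p53-dependent autophagy, fell by 1.15.

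Secreted and surface targets showed the widest range. Of 11 tested, 6 rose and 3 fell (54.5% and 27.3%, beside 20.3% and 21.9% of all genes). CD82, a tetraspanin, rose from 924 ± 7.14 to 2455 ± 23.3 (normalized counts ± SD, n = 2 per group), to 266% of its control level. TNFRSF14, with 13.3% of its exonic bases shared, rose by 0.95 and NOTCH1 by 0.25. KITLG, the ligand of KIT, had 4 reads over both sh-NC libraries and 36 over both sh-IRF1 libraries. It passed the filter on low values only through sh-IRF1, so its call is no support for a rise of the list, and 5 others rose. The growth factor gene CSF1 fell from 244 ± 5.58 to 78.4 ± 12.4 and GDF15, a stress cytokine, from 112 ± 13.0 to 42.7 ± 12.5 (SD, n = 2 each). PLXNB2, a semaphorin receptor, fell by 0.67.

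The remaining target list held 19 tested genes, of which 6 rose and 4 fell (31.6% and 21.1%, beside 20.3% and 21.9% of all genes). TP53INP2, an autophagy factor, rose by 1.06, the chaperone gene HSPA4L by 0.85 and ZNF561 by 0.65. TRAF4 (-0.60), TRIM22 (-0.50) and RAP2B (-0.28) fell, with 17.0% of the exonic bases of TRAF4 shared.

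The last list held 20 cell cycle genes that p53 represses through p21 and the DREAM complex. All 20 were tested, and 4 were called higher and 9 lower (20% and 45%, beside 20.3% and 21.9% of all genes), with a median of -0.12 and a range of -0.48 to 0.29. TOP2A (-0.26), CCNB2 (-0.48) and PLK1 (-0.31), genes of chromosome and mitotic function, fell. The regulators FOXM1 and E2F1 rose by 0.27 and 0.29, and the proliferation antigen MKI67 by 0.15. PLK1 and FOXM1 share 12.8% and 15.9% of their exonic bases with other genes.

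**Figure D5:**
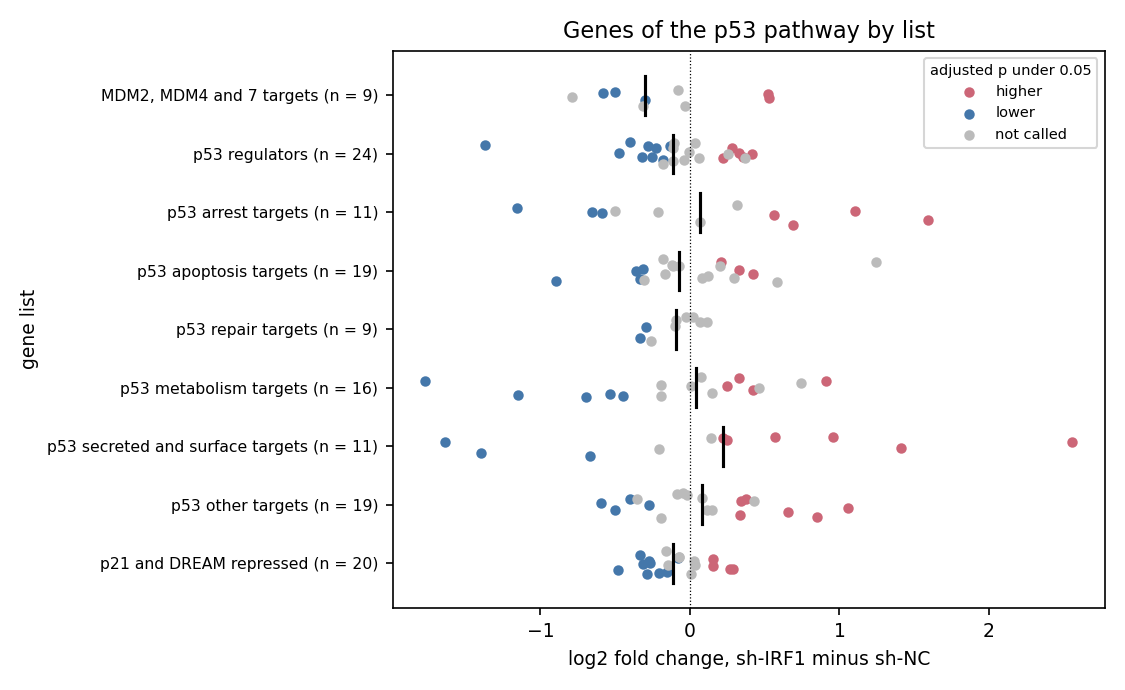
Log2 fold change (x axis, sh-IRF1 minus sh-NC) of every tested gene in each list of the p53 pathway; points are genes coloured by call at an adjusted p under 0.05, and black bars are list medians, with the number of tested genes beside each name. Called genes lie on both sides of 0 in every list but the repair targets, where 0 were higher, and list medians run from -0.30 to 0.22.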

How the data were processed

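RNA of 4 MV4-11 libraries was sequenced by a service company, and the submitters' processing notes name HISAT2 2.0.5 and the build hg38. Counter, annotation and strandedness are not given in the sources used here. The authors deposited a normalized signal, made by dividing reads by a size factor of the library. All values (100%) were whole multiples of 1 step within 0.1 read, at most 4.9e-05 read away, so reads were recovered. The table had 0 other columns of per-sample values. Genes reaching 10 in 2 or more libraries (14120 of 23622) were tested with limma 3.58.1 in R 4.3.3 (trend, robust, 43 prior degrees of freedom) on log2(value + 1). edgeR 4.0.16 and DESeq2 1.42.0 on the recovered reads were alternatives. At 2 against 2, the smallest exact permutation p (two-sided) is 0.33. The scripts were tested on simulated data. Symbols matched 23456 identifiers. Positions and exon overlaps came from GENCODE 44 on GRCh38, promoters and gene starts from RefSeq (GRCh38.p14), hairpin sequences from the study's supplement. The genes and lists were chosen with earlier results of these data known. Genes were named by rule: IRF1, all 9 genes, in every other p53 list the 3 smallest p in each direction among called genes, and called genes beyond 1 on the log2 scale, with marker lists by ranges and counts; FLT3, PECAM1, CPM and the ratios were chosen after their values were seen. Alternatives covered the test, scaling, filter, pseudocount, robust setting, replicate block and leaving out each library.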

Additional observations from a re-analysis of the deposited data

How the results depend on the processing

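IRF1, MDM2, MDM4, CDKN1A and CCNG1 kept their direction and their side of an adjusted p of 0.05 under all 15 alternatives. Leaving out each library, log2 fold changes ran from -0.86 to -0.78 for IRF1, 0.45 to 0.59 for MDM2, -0.34 to -0.26 for MDM4, -0.56 to -0.43 for CDKN1A and -0.61 to -0.55 for CCNG1. It ran from 0.36 to 0.69 for ZMAT3, whose call was lost without sh-IRF1 replicate 2, and from -1.15 to -0.42 for TP53INP1, which passed without sh-IRF1 replicate 1 (adjusted p = 0.0488 from limma, with a range of 0.0488 to 0.473 over the alternatives). FAS (-1.01 to 0.39), PPM1D (-0.16 to 0.0011) and XPC (-0.081 to 0.016), which were not called, changed sign without sh-IRF1 replicate 2, sh-IRF1 replicate 1 and sh-NC replicate 1. XPC also changed sign with total-count scaling (0.012), which moved the median of all genes to 0.043. The count of the 9 genes called stayed at 5 except for 4 and 6 without a sh-IRF1 library, and edgeR and DESeq2 each gave 5. For the other pathway lists 56 to 75 genes were called, against 71. FAS and TP53INP1 could not be tested with the filter at 50. Whether same-numbered libraries were prepared together is not stated. Their deviations correlated at -0.0154 over genes, which shows no sign of pairing but cannot exclude it. With the replicate block 5 of the 9 genes were called, as without it, and 6050 of all genes against 5953. With 2 libraries per group a gene's own spread is poorly known, and reads shared between overlapping genes could not be separated.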
